A study of Rattus norvegicus with 8 samples.

Results

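The sequences described here are the predicted candidate miRNAs of a small RNA sequencing study of rat exosomes: every entry of the deposited count table whose name starts with PC-, the table's mark for an entry without a miRNA name. They make up 651 of the table's 1512 entries. Entries with an identical sequence were summed, which left 624 candidate sequences of 1367 in all, and 0 of them was identical to a sequence with a miRNA name. Of the other entries, 455 (424 sequences) carried rat miRNA names and 406 carried names from other species. Exosomes, small vesicles that cells release, came from nucleus pulposus cells (NPC, 4 libraries) or from nucleus pulposus progenitor cells (NPPC, 4 libraries) of the intervertebral disc, whose soft core is the nucleus pulposus. The labels name no strain, age, genotype or treatment for either group, and do not say that libraries stem from separate cultures or animals. The p-values below therefore describe the spread among 8 libraries, which may be technical. The question was how the small RNA content of the exosome groups differed.

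A miRNA is cut from a hairpin-shaped precursor by the enzymes Drosha and Dicer, and either arm of the hairpin (5p or 3p) can be loaded into an Argonaute protein. The seed, bases 2 to 8 from the 5′ end, pairs with target mRNAs. Software predicts a candidate miRNA when a read maps to a genome stretch that can fold into such a hairpin, and fragments of other RNAs, such as tRNAs, can meet that condition too. Exosomes are known to carry both miRNAs and fragments of other RNAs.

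The sequences that the results turn on are printed first, 5′ to 3′ in DNA letters, with the seed in capitals. All of them are identical to a stretch of their deposited rat hairpin. They were not compared with tRNA or ribosomal RNA sequences, so a fragment of such an RNA among them would not have been recognised. The most abundant candidate is shown because it held the largest part of the candidate counts. The following 5, of 22 bases, are shown because they were the tested candidates of that length, and the last pair because it came from the only hairpin with a candidate on both arms.
PC-3p-1405_3089: cGGGTTCGactcccggtgtgggaac
PC-5p-7799_392: tTGTCTGTgtgtatgtccatgt
PC-3p-9703_301: tACATACCgacatacacacaga
PC-5p-16644_160: tGTGTTTTgtgtgtgtacatgt
PC-3p-13219_209: tCGAACTTgactatctagagga
PC-5p-17996_147: tCAGACATggttcctgtcctct
PC-5p-67161_33: gGTCTGGCctggtgggccctgc
PC-3p-176848_10: cGGGCCTCactgggcctggccca

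PC-3p-1405_3089 was listed at chr1:115716355-115716435 on the plus strand. The genome build of the deposited coordinates is not given in the sources used here, and it is not the build of the RefSeq tables (GRCr8): of 247 named entries matched to RefSeq mature miRNAs, 0 had its RefSeq position inside the deposited hairpin coordinates. The candidate is 25 bases long, longer than a typical miRNA, and ends 3 bases before the end of its 81-base hairpin, in which it is shown in capitals.
PC-3p-1405_3089 hairpin: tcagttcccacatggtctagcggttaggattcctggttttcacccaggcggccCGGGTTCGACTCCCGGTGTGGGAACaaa
It was the only candidate sequence, on either strand, with the letters GGTTCGA, the core of the B box, an internal promoter element of tRNA genes that is also found in the mature tRNA. The match is in capitals in the next line.
PC-3p-1405_3089 motif: cgGGTTCGActcccggtgtgggaac
On either strand, those letters were in 5 of 651 candidate hairpins (0.768%), 11 of 773 named hairpins (1.42%) and 0.98% of RefSeq rat promoter windows of 300 bases. The match is a description of letters. Whether the whole hairpin is a tRNA gene was not tested.

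PC-5p-67161_33 and PC-3p-176848_10 came from the 5p and 3p arms of a 99-base hairpin at chr10:62659826-62659924 on the minus strand, in which both are in capitals.
Both-arm hairpin: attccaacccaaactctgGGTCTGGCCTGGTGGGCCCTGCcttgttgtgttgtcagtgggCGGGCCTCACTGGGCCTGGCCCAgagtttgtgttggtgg
A hairpin cut by Dicer leaves a product from each arm, and sequencing of the second arm is one criterion for annotating a miRNA. This was the only one of 650 candidate hairpin loci (0.154%) with both arms listed, against 151 of 303 loci of rat-named entries (49.8%). The 5p sequence had 39 counts, spread over 5 libraries. Its 3p partner had 22 counts, in NPC replicate 4, NPPC replicate 3 and NPPC replicate 4.

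Most candidates differed from their own hairpin. Aligned without gaps to the hairpin of the same entry, 111 of 651 candidate entries (17.1%) matched it throughout and 540 (82.9%) carried 1 substitution. Rat-named entries matched throughout in 414 of 455 cases (91.0%), and entries named for other species that had a hairpin in 151 of 318 (47.5%). Of the 540 substitutions, 197 (36.5%) fell in bases 2 to 8, 14 at the first base and 42 (7.78%) at the last base, where a miRNA can gain an untemplated base after it is cut. The most frequent change from hairpin to candidate was G to C, in 66 entries. Counted by sequence, 100 candidates matched a hairpin throughout and 524 carried a substitution at every locus.

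Candidates were also shorter and richer in G and C than rat miRNAs. Lengths of 18 or 19 bases were found in 432 candidate sequences (69.2%) and in 7 rat-named sequences (1.65%). Lengths of 21 to 23 bases, which Dicer typically makes, were found in 82 candidates (13.1%) and 378 rat-named sequences (89.2%). The median GC content was 61.1% against 47.6%, and a first base of T (U in the RNA), which Argonaute favours, was found in 24.5% against 40.6%. The predicted hairpins of candidate entries had a median deposited folding energy (dG, in a unit the table does not name) of -31.1, against -41.3 for rat-named entries, and a median length of 80 against 86 bases.

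The 100 candidates without a substitution differed from the other 524 in these features. Of the former, 41 (41%) had 21 to 23 bases, 25 of them 22 bases, and 43 (43%) had 18 or 19. Of the latter, 41 (7.82%) had 21 to 23 bases and 389 (74.2%) had 18 or 19. The median GC content was 55.3% without and 63.2% with a substitution. A first base of T was found in 35 (35%) and 118 (22.5%) respectively. These comparisons are between sequences and have no test over libraries.

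**Figure D1:**
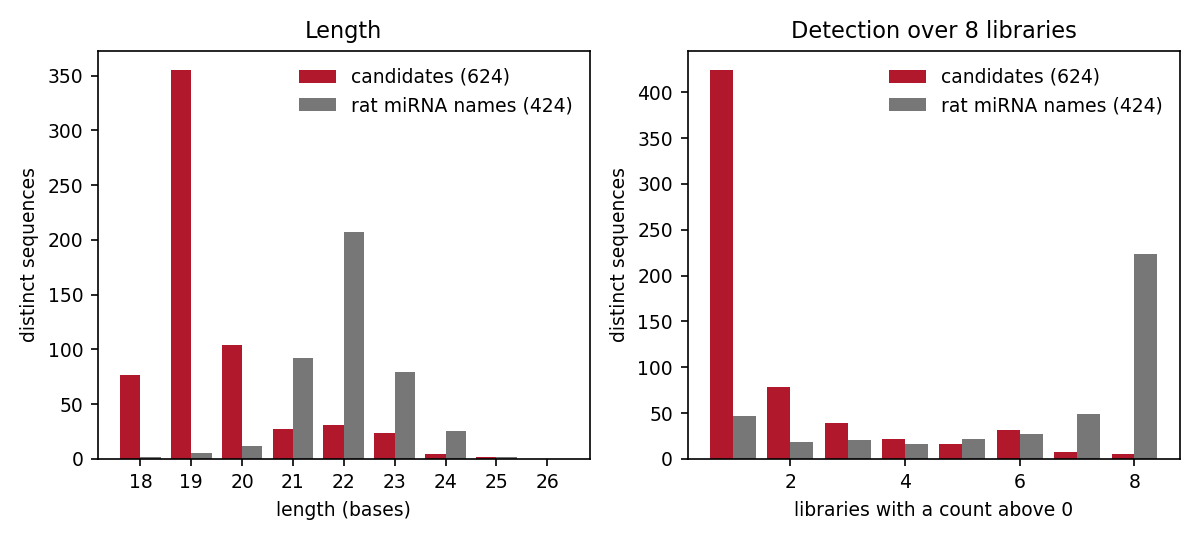
Numbers of distinct sequences by length in bases (left) and by the number of libraries with a count above 0 (right), for the 624 candidates (red bars) and the 424 rat-named sequences (grey bars). Candidates peak at 19 bases (355 sequences) and in 1 library (424), and rat-named sequences at 22 bases (207) and in all 8 libraries (224).

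Library totals over the whole table ranged from 329011 to 681591 counts in NPC and from 819845 to 1416940 in NPPC. NPC replicate 1, the shallowest library, stood apart with a TMM factor of 1.68, against 0.837 to 1.02 for the other 7. MiRNAs of mesenchymal and cartilage cells (miR-199a, miR-214, miR-143, miR-145, miR-140 and miR-455, 6 of 6 above 0) summed to 19.8% to 26.1% of the counts in NPC and 16.8% to 18.8% in NPPC. Erythrocyte miRNAs (3 of 3 above 0) stayed at or below 0.122% in NPC and 0.15% in NPPC. Leukocyte and platelet miRNAs (4 of 4) took 0.00547% to 0.0472% in NPC and 0.0382% to 0.0483% in NPPC. The liver miRNA (1 of 1), epithelial miRNAs (3 of 4) and neural miRNAs (1 of 2, at 0 in NPPC) stayed at or below 0.00778%. The part of these markers in the results below was not tested.

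Few candidates were found throughout the study. Of the 624, 424 (67.9%) were above 0 in 1 library and 5 (0.801%) in all 8, whereas 47 (11.1%) and 224 (52.8%) of the rat-named sequences were. In the 424, the count ranged from 2.5 to 106 with a median of 6, and 347 of them had 5 to 7 counts. Only 11 of 1153 candidate values above 0 were under 5, so the table appears to list few lower values and a 0 gives no upper limit. The 5 candidates above 0 in all libraries were PC-3p-1405_3089, PC-3p-1154_3944, PC-5p-7799_392, PC-5p-17996_147 and PC-3p-31766_79. A further 8 were above 0 in 7 libraries, among them PC-3p-9703_301, PC-3p-13219_209 and PC-5p-16644_160, which were each at 0 in NPC replicate 1.

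The libraries numbered 1 lacked many candidates that the others held. Of 39 candidates above 0 in all 6 libraries numbered 2 to 4, 31 were at 0 in NPC replicate 1 and 30 at 0 in NPPC replicate 1, with 27 at 0 in both. NPC replicate 1 had 40.1% of the total of NPPC replicate 1, and each had the lowest total of its group. The total of NPPC replicate 1, 819845 counts, was still above that of every NPC library (at most 681591). The labels tie no batch to the replicate numbers. The part of depth in these zeros was not tested.

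The number of candidates detected was lower in NPPC at equal depth. Each library was thinned at random to 329011 counts, the smallest total, and sequences with at least 5 counts were counted, as the mean of 20 draws. NPC replicates 1 to 4 then held 64, 59.55, 74.95 and 150.65 candidates, and NPPC replicates held 10.6, 40.55, 44.1 and 32.95. The groups did not overlap, and NPC replicate 4 held the most. NPC averaged 87.3 ± 42.7 candidates and NPPC 32.1 ± 15.0 (SD, n = 4 each), a difference of -55.2 (two-sided exact permutation p = 0.0286, the smallest that 70 arrangements allow; 0.0429 adjusted by Benjamini-Hochberg over 3 tests). Unthinned numbers above 0 were 64, 131, 182 and 293 against 42, 163, 165 and 113, and these groups overlapped (exact permutation p = 0.457).

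Candidates found in a single library were most numerous in NPC replicate 4. Their numbers were 35, 36, 62 and 158 in NPC replicates 1 to 4 and 13, 47, 45 and 28 in NPPC, with overlap (exact permutation p = 0.229). Per 1000000 counts of the library these came to 106, 58.2, 91.0 and 294 in NPC and 15.9, 43.1, 31.8 and 21.4 in NPPC, without overlap (exact permutation p = 0.0286, a comparison added after the table had been seen). Every NPC total is below every NPPC total, so that dividing by the total raises NPC against NPPC. Without the libraries numbered 1, 3 against 3 cannot go below an exact permutation p of 0.1, which is the value that this comparison and the thinned number gave.

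The summed candidates were a small part of every library, and a smaller one in NPPC. They made up 1.52%, 0.771%, 0.820% and 1.37% of the counts in NPC replicates 1 to 4, and 0.332%, 0.585%, 0.488% and 0.376% in NPPC. Every NPC library lay above every NPPC library. The mean share fell from 1.12% ± 0.382 in NPC to 0.445% ± 0.114 in NPPC (SD, n = 4 each), a difference of -0.675 percentage points (two-sided exact permutation p = 0.0286, 0.0429 adjusted over 3 tests). In exosome RNA, fewer vesicles that carry a sequence and less of it per vesicle cannot be told apart. A share also depends on every other RNA in the library.

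The share had different makeups in different libraries. PC-3p-1405_3089 was at 9574, 2389, 1356 and 2450.1 CPM (counts per 1000000 counts of the library) in NPC replicates 1 to 4, and at 1837, 2116, 1677 and 1613 in NPPC. NPC replicate 1 lay far above the other 7 libraries, which overlapped between groups (exact permutation p = 0.229). PC-3p-1154_3944, of 18 bases with the substitution A8T (hairpin base, position from the candidate's 5′ end, candidate base), was at 3884, 1228, 792 and 882 CPM in NPC and 998, 782, 464 and 249 in NPPC (exact permutation p = 0.114). It was highest in NPC replicate 1 too, and it was listed at chr13:36544349-36544439 on the plus strand. This pair made up 88.3% of the candidate counts in NPC replicate 1 and 85.3% in NPPC replicate 1, but 24.4% to 49.5% in the other 6 libraries.

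The remaining candidates with a substitution, 523 sequences, showed another order of libraries. They summed to 1204, 3640.4, 5583 and 9534 CPM in NPC and to 234, 2445, 2336 and 1432 CPM in NPPC. NPC replicate 1 was the lowest of its group, below 3 NPPC libraries, and the exact permutation p was 0.114 (0.19 adjusted over the 15 comparisons of this kind, which were chosen after the table had been seen). With PC-3p-1154_3944 added, the substituted candidates were at 5088, 4868, 6375 and 10415 CPM in NPC and 1232, 3227, 2801 and 1681 in NPPC, without overlap (exact permutation p = 0.0286, 0.107 adjusted). The 99 unsubstituted candidates other than the most abundant lay at 577, 449.7, 471 and 817 CPM in NPC and 256, 511, 400.2 and 467 in NPPC, with overlap (exact permutation p = 0.143). Candidates of 21 to 23 bases had means of 446 ± 102 and 396 ± 101 CPM (SD, n = 4 each, exact permutation p = 0.543).

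**Figure D2:**
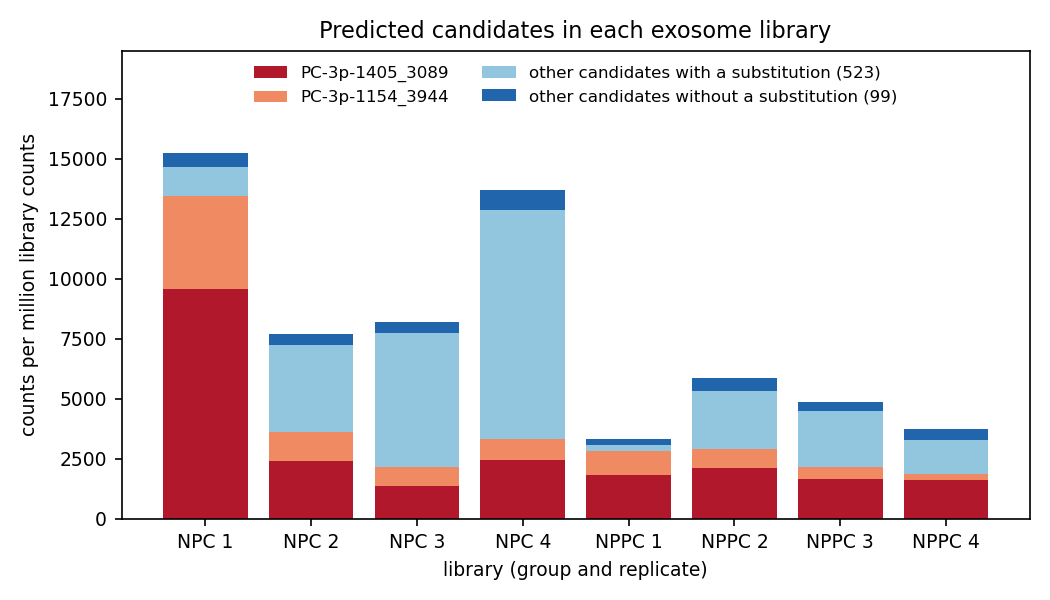
CPM (vertical axis) of 4 sets of candidates, stacked, in each of the 8 libraries (horizontal axis). The pair of most abundant candidates forms most of the bars of NPC 1 and NPPC 1, and the 523 other substituted candidates form the largest single piece in NPC 2, NPC 3, NPC 4, NPPC 2 and NPPC 3.

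Sequence by sequence, no candidate passed the test. EdgeR's quasi-likelihood test was run on the 422 sequences of the whole table that passed its filter on low counts, of which 36 were candidates (5.77% of the 624, holding 81.6% of candidate counts). At an adjusted p under 0.05, 0 of the 36 was called, where 1 of all 422 was (0.237%). At an unadjusted p under 0.05 it was 0 of 36 as well, where 11.4% of all sequences tested passed. With the replicate number as a block, 9 of 36 had an unadjusted p under 0.05, all lower in NPPC, where 7.35% of all sequences tested were lower at that p, and 0 was called after adjustment. The TMM-scaled CPM of the groups did not overlap for 1 candidate, PC-3p-9703_301, against 12.3% of all sequences tested. The lowest adjusted p was 0.445, for PC-3p-1154_3944 (log2 fold change, NPPC over NPC, -0.99 ± 0.45 SE).

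The fitted log2 fold changes of the 36 had a median of -1.01, with 30 below 0 and 6 above. Over all sequences tested the median was 0.01 and 49.3% were below 0. Scaling by total counts moved the median of all sequences to -0.32, with 31 of the 36 candidates and 64.0% of all sequences below 0. Of the 29 tested candidates with a substitution, 28 were below 0. Of these 36, 24 were at 0 in both libraries numbered 1. The filter keeps a sequence that is high enough in 4 libraries, so these counts describe the 36 and not the other 588.

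PC-5p-3849_899 and PC-3p-3056_1188 led the tested candidates after that pair. PC-5p-3849_899, of 19 bases with T11G, was listed at chr3:52244893-52244991 on the plus strand. Its counts were 0, 423, 521 and 570 in NPC replicates 1 to 4 and 10, 312, 333 and 295 in NPPC, or 627 ± 448 against 190 ± 121 CPM (SD, n = 4). Both libraries numbered 1 were near 0 while the other 6 held at least 295 counts, and the log2 fold change was -1.59 ± 1.35 SE. PC-3p-3056_1188, of 20 bases with G10T, had 10, 223, 442 and 631 counts in NPC and 0, 181, 206 and 142 in NPPC, with a log2 fold change of -2.24 ± 1.34 SE. Its locus, chr10:58820506-58820584 on the plus strand, is also that of an entry named for mouse mir-5119, with which it shares a stretch of at least 14 bases.

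Several other substituted candidates were at 0 in both libraries numbered 1. PC-3p-2433_1557 (G16T) had 0, 129, 201 and 300 counts in NPC and 0, 463, 336 and 175 in NPPC, with overlap and a log2 fold change of -0.28 ± 1.50 SE. PC-5p-4429_769 (T17A) had 0, 136, 351 and 247 against 0, 135, 119 and 132. PC-5p-4361_781 (C18G) had 0, 125, 206 and 174 against 0, 107, 100 and 85. That last candidate was listed at 2 loci of chromosome 16, with identical hairpins 11593 bases apart. PC-5p-4954_675 (T11G) had 0, 90, 168 and 185 against 0, 57, 116 and 67. PC-5p-5649_579 (C3T) had 0, 61, 117 and 150 against 0, 74, 112 and 77. The last 4 of these had log2 fold changes from -1.84 to -1.27, with standard errors from 1.35 to 1.46.

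Leaving out both libraries numbered 1, a fit added after their zeros had been seen, changed the count of calls. Of 53 candidates then tested, 46 were below 0, where 50.1% of all 457 sequences tested were. At an adjusted p under 0.05, 9 candidates were lower in NPPC and 0 higher, where 3.94% of all sequences tested were lower and 8.75% were called in either direction. All 9 carried a substitution and had 18 to 20 bases, and 8 of them were among the 36 tested with all libraries. A filter over 3 against 3 libraries can be passed through the higher group alone: 5 of the 53, PC-3p-54052_43 among them, were above 0 in fewer than 2 NPPC libraries, and 0 was in fewer than 2 NPC libraries. Of the 17 candidates that this fit added, 15 were below 0. The counts therefore describe the candidates that passed and support no statement on all candidates. They were chosen by this result, so the names that follow were picked after values were seen. PC-5p-3849_899 had a log2 fold change of -1.60 ± 0.19 SE (edgeR adjusted p = 0.0136), PC-5p-4361_781 of -1.69 ± 0.27 and PC-3p-3056_1188 of -2.22 ± 0.41. The others were PC-3p-14430_189, PC-5p-4954_675, PC-5p-15227_178, PC-5p-4429_769, PC-5p-10636_271 and PC-3p-54052_43. The last of these had 12, 24 and 12 counts in NPC replicates 2 to 4 and was listed at 0 in every NPPC library.

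The 5 tested candidates of 22 bases, all without a substitution, had fitted log2 fold changes above 0, also with total count scaling. Of all sequences tested, 49.3% were below 0, and 64.0% with total count scaling. The edgeR adjusted p-values of the 5 were 0.604 to 0.911, and 3 of them came from 1 stretch of chromosome 17. PC-3p-9703_301, PC-5p-16644_160 and PC-3p-13219_209 were at 0 in NPC replicate 1, the shallowest library. PC-3p-9703_301 had 0, 21, 25 and 22 counts in NPC replicates 1 to 4 and 37, 56, 82 and 58 in NPPC, or 27.9 ± 18.8 against 49.7 ± 6.33 CPM (SD, n = 4). Every NPPC library lay above every NPC library, with a log2 fold change of 0.91 ± 0.82 SE. PC-5p-7799_392 had 11, 37, 42 and 21 counts in NPC and 32, 86, 98 and 85 in NPPC, or 48.5 ± 14.3 against 63.0 ± 17.005 CPM, with overlap and a log2 fold change of 0.57 ± 0.45 SE. Its seed is that of the RefSeq rat miRNA miR-632.

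The other 3 differed by less than their errors. PC-5p-16644_160 had 0, 16, 16 and 15 counts in NPC and 7, 47, 33 and 26 in NPPC, with a log2 fold change of 0.41 ± 0.93 SE. PC-3p-13219_209 had 0, 62, 98 and 81 in NPC and 38, 145, 161 and 192 in NPPC, with a log2 fold change of 0.26 ± 0.98 SE. It was listed at a pair of loci far apart on chromosome 7. PC-5p-17996_147, listed at 2 loci with identical hairpins on chromosome 8, had 6, 12, 15 and 15 counts in NPC and 37, 24, 21 and 23 in NPPC, with a log2 fold change of 0.35 ± 0.50 SE. Without the libraries numbered 1 its log2 fold change was -0.20, while the other 4 stayed above 0. The remaining tested candidates without a substitution were below 0, PC-3p-1405_3089 at -0.59 ± 0.37 SE and PC-3p-34340_73 at -1.14 ± 1.22 SE. Without the libraries numbered 1 PC-3p-1405_3089 was at -0.03 ± 0.18 SE.

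**Figure D3:**
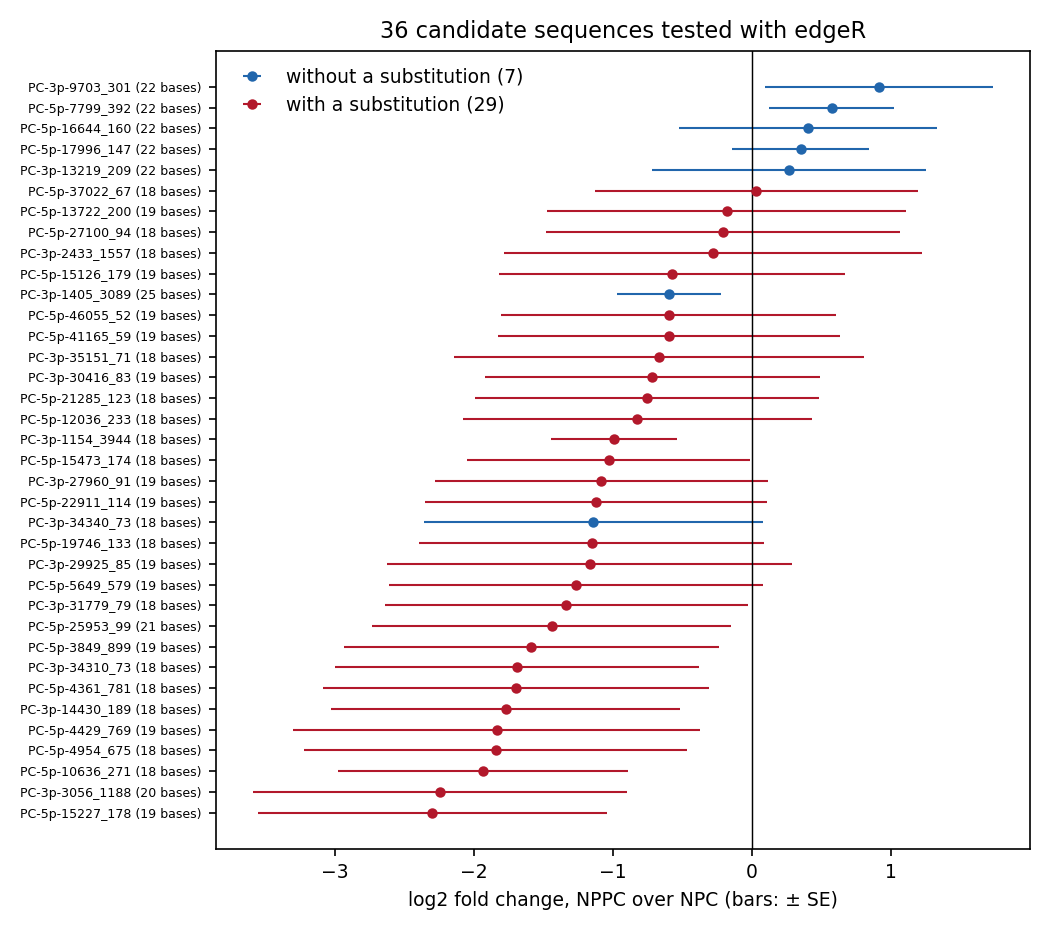
Log2 fold change, NPPC over NPC, of the 36 tested candidates (points, with bars of ± 1 SE), ordered by value, in blue without and in red with a substitution. The 5 blue points above 0 at the top are the candidates of 22 bases, and 28 of 29 red points lie below 0.

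Candidates were listed on many chromosomes, with most entries on chromosome 1 (76), chromosome 2 (48) and chromosomes 5 and 10 (44 each). One stretch of chromosome 17, picked out after the table had been seen, held 11 of the 36 candidate entries of that chromosome within 279 kb of the minus strand (chr17:71783958-72062818). These were 8 sequences, 7 of 21 to 23 bases and 6 without a substitution. All 5 named entries in the stretch (3 sequences) were forms of rat miR-466c. In rodents, miR-466 and related miRNAs are known to come from a cluster of repeated hairpins in an intron of Sfmbt2, a Polycomb gene.

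PC-5p-7799_392, PC-3p-9703_301 and PC-5p-16644_160, printed above, were the tested members of this stretch. PC-5p-7799_392 lay at its low end, chr17:71783958-71784025, in a 68-base hairpin, where it is in capitals.
PC-5p-7799_392 hairpin: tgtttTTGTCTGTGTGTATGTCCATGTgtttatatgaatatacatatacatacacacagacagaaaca
PC-3p-9703_301 was listed at chr17:71805241-71805329 and chr17:72062730-72062818, and PC-5p-16644_160 at chr17:71802321-71802460 and chr17:72061479-72061618. A miR-466c entry lay 885 bases from each locus of the former, and 105 and 127 bases from those of the latter. PC-3p-117461_16 shared at least 14 bases with PC-3p-9703_301, and PC-5p-70814_31 with PC-5p-16644_160. The letters TGTGTGTG, on either strand, were in 3 candidate sequences, 15 candidate hairpins (2.30%), 27 named hairpins (3.49%) and 3.45% of promoter windows.

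Together the 8 candidates of the stretch were at 33.4, 119.7, 149.6 and 146.97 CPM in NPC replicates 1 to 4 and at 104, 204, 193 and 166 in NPPC. NPC replicate 1 was lowest, and NPPC replicate 1 lay below the other 3 NPC libraries, so the groups overlapped. The means were 112 ± 54.4 and 167 ± 44.7 CPM (SD, n = 4, exact permutation p = 0.143). Named miR-466c sequences of the same stretch were at 0, 11.3, 29.3 and 11.2 CPM in NPC and 30.5, 42.2, 32.8 and 34.3 in NPPC, without overlap (exact permutation p = 0.0286, 0.107 adjusted over 15). Within each library, the log2 ratio of the 8 candidates to the 523 substituted candidates other than PC-3p-1154_3944 (2 of which lie in the stretch) was -5.33 ± 0.474 in NPC and -2.86 ± 1.15 in NPPC (SD, n = 4, exact permutation p = 0.0286, 0.107 adjusted over 15). Every NPPC library had the higher ratio. A single count was 3.04 CPM in NPC replicate 1, 1.47 to 1.86 CPM in the other NPC libraries and 0.706 to 1.22 CPM in NPPC. Few candidate values under 5 counts were listed, so low values could go unlisted at a higher CPM in NPC. The part of this limit in the candidate sums, the miR-466c values and the ratio was not tested.

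**Figure D4:**
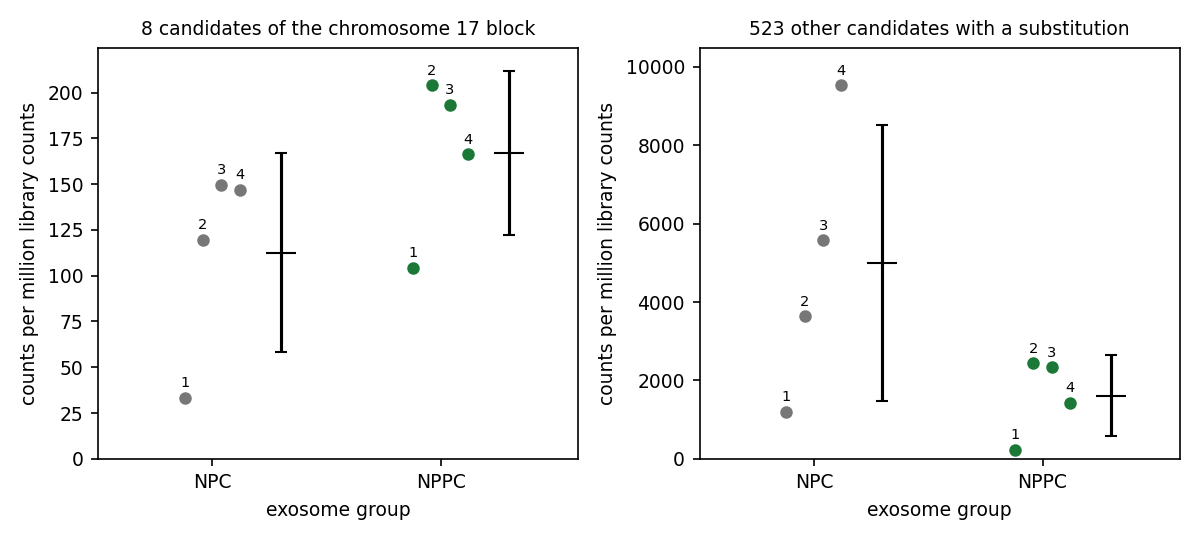
CPM, by group, of the 8 candidates in the chromosome 17 stretch (left) and of the 523 candidates with a substitution other than PC-3p-1154_3944 (right). Points are libraries with their replicate number, and bars show the mean ± SD (n = 4). On the left NPPC points tend to lie higher (means 167 and 112), on the right NPC points (means 4990.0 and 1612).

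Sequences listed more than once were 27 of the 624 candidates, each listed at 2 loci, and the deposited values at both loci were equal in all 27. For 22 of them both loci were on 1 chromosome, for 9 within 100 kb, and for 16 the hairpins were identical. Repeated candidates held 1.70%, 5.46%, 6.94% and 5.11% of the candidate counts in NPC replicates 1 to 4 and 5.03%, 6.39%, 8.25% and 8.22% in NPPC. The groups overlapped, with means of 4.80% ± 2.22 and 6.97% ± 1.56 (SD, n = 4, exact permutation p = 0.2). Without PC-5p-4361_781, the most abundant of them, the means were 2.63% ± 0.663 and 5.76% ± 1.04, without overlap (exact permutation p = 0.0286). These are shares of candidate counts, which were themselves lower in NPPC. Per library, the 27 were at 258, 421, 569 and 699.5 CPM in NPC and 167, 374, 402 and 309 in NPPC, with means of 487 ± 190.3 and 313 ± 105 CPM, lower in NPPC with overlap (exact permutation p = 0.2). PC-3p-25333_102 (G10C), listed at 2 loci 1263 bases apart on chromosome 2, had 45 counts in NPC replicate 1, 131 in NPPC replicate 3 and 0 in the other 6 libraries.

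A few candidates lay at known miRNA genes. Of the 650 loci, 18 were within 10 kb of a named hairpin, 9 of them being the chromosome 17 entries nearest miR-466c, and 6 overlapped one, 5 on the same strand. PC-5p-170906_10 (15 counts over 3 libraries) overlapped the hairpin listed for miR-21-5p, PC-5p-343063_6 that of miR-326-3p, and PC-3p-312902_6 lay 411 bases from that of miR-125b-5p. By exact letters, 0 of the 624 was contained in any of 419 RefSeq rat hairpins. As 524 of them carried a substitution at every locus, this search could hardly find them and says little on where they lie. Seeds were shared with a RefSeq rat mature miRNA by 25 candidates (4.01%), while the seeds of those 724 miRNAs cover 3.57% of all possible seeds. PC-3p-1154_3944 had the seed of miR-365-5p and PC-5p-4361_781 that of miR-216a-3p. The substitution of PC-3p-1154_3944, A8T, lies within its seed, so the aligned stretch of its hairpin has another seed.

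Some candidate hairpins were found, by letters, in windows from 250 bases before to 50 bases after RefSeq gene starts (GRCr8, 33469 windows). These were 9 hairpins, 7 of them on the gene's strand. They included windows of Gclc, the catalytic subunit of the enzyme that starts glutathione synthesis, Fscn1, an actin-bundling protein, Aacs, an enzyme that activates acetoacetate, and the long non-coding RNA Dancr. Their counts were low. PC-3p-87566_23, at the Aacs window, had 35 counts over 3 libraries, and the hairpins at Gclc, Fscn1 and Dancr had 5, 5 and 6 counts in 1 library each. The letters GATTTAGCTCAG, bases 10 to 21 of the brain RNA Bc1 and a stretch of the rodent ID repeats related to it, were in 9 candidate hairpins (1.38%), 1 named hairpin and 0.684% of promoter windows, on either strand.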

How the data were processed

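Small RNA of exosomes from rat nucleus pulposus cells (NPC) and progenitor cells (NPPC) was sequenced in 4 libraries each. Per the labels' protocols, a kit for exosome RNA and the TruSeq small RNA library kit were used. The submitters' processing notes list CASAVA 1.8. Which aligner, hairpin predictor and genome build were used is not given in the sources used here. Values deposited by the authors are estimated counts per entry, of which 82.3% of those above 0 were whole within 1e-09. A scaled signal per library, deposited beside them (each count times 1 factor per library), was not used. Hairpin GC content was deposited in percent, and folding energy and length as other values.

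Entries with an identical sequence were summed, and sums were rounded to whole numbers for edgeR 4.0.16 (R 4.3.3, TMM, filterByExpr, quasi-likelihood test, group as the only term, Benjamini-Hochberg adjustment over all sequences tested). CPM is per 1000000 of the whole table's counts unless called TMM-scaled. Two-sided exact permutation tests over libraries were run in Python 3.11.15 (pandas 2.3.3, numpy 2.4.6), and figures were drawn with matplotlib 3.10.9. Groups and replicate numbers came from titles. Tested on simulated data of 400 sequences for NPPC against NPC, the edgeR step recovered 10.4% of those changed 2-fold and 64.2% of those changed 4-fold, with 1 unchanged one called. The simulated libraries did not copy the zeros that 24 of the 36 tested candidates had in both libraries numbered 1. These rates may therefore not hold for the candidates.

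Members and lists were chosen with earlier results of these data known. Candidates named are those with an adjusted p under 0.05, the 12 tested ones with the highest mean CPM, up to 8 more tested ones whose groups did not overlap, the 5 with the most loci (ties by count), up to 3 shared with a named entry (0 existed), the untested one with the highest count in 1 library, and the 3 most like the most abundant over 8 libraries. Others are named as examples of the set they stand in. Sequences are printed for candidates of at least 20 bases that match their hairpin. Promoter windows and miRNAs are from RefSeq (GRCr8). Alternatives were other scalings and filters, DESeq2 1.42.0, voom of limma 3.58.1, a replicate block, other count minimums and each library left out.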

Additional observations from a re-analysis of the deposited data

Results flagged for a closer look

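Values of 62 groups of 4 libraries were screened for a single library whose gap to its neighbour was large for the group's range. It was found in 11 of them, and chance would give about 1 in 20. Several of these groups share sequences and are not independent. PC-3p-1405_3089 and PC-3p-1154_3944 were each counted more than once among the 11 with the same values, and their sum was counted too. The 11 are therefore not separate findings to set against 1 in 20. NPC replicate 1 accounted for 8 of the 11, these repeats among them. PC-3p-1405_3089 was at 9574 CPM there, against 1356 to 2450.1 in the other NPC libraries, and PC-3p-1154_3944 at 3884 CPM, against 792 to 1228. This pair together was at 13458 CPM, against 2148 to 3617. PC-3p-9703_301 and PC-5p-16644_160, both from the chromosome 17 stretch, were at 0 CPM in that library, against 34.0 to 40.9 and 23.5 to 27.9 CPM.

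PC-3p-25333_102 was at 137 CPM in NPC replicate 1 and at 92.5 CPM in NPPC replicate 3, and at 0 in the other libraries of either group. The number of candidates detected at equal depth was 150.65 in NPC replicate 4, against 59.55 to 74.95 in the other NPC libraries. Candidates without a substitution summed to 2627 CPM in NPPC replicate 2, against 2077 to 2092 in the other NPPC libraries.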

How the results depend on the processing

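The candidate share kept its direction in all alternatives run. Its difference of -0.675 points lost significance (exact permutation) with a replicate block (-0.675, p = 0.125, the smallest 16 sign patterns allow), without the libraries numbered 1 (-0.503, p = 0.1, the smallest possible), without the pair of most abundant candidates (-0.355, p = 0.114) and with unsubstituted candidates alone (-0.230, p = 0.229). The last 3 were added after the data had been seen. With each library left out it ranged from -0.792 to -0.541 (p from 0.0286 to 0.0857, above 0.05 without any 1 of the NPPC libraries).

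The number detected at equal depth, a difference of -55.2, was not significant by the exact permutation test at a minimum of 1 count (-57.1, p = 0.371), at 10 counts (-19.2, p = 0.0571), without thinning (-47, p = 0.457), with a replicate block (-55.2, p = 0.125) or without the libraries numbered 1 (-55.9, p = 0.1). The minimum of 1 count is unequal between libraries, since few values under 5 are listed and only thinning makes them. From a minimum of 5 to 1, NPC replicate 1, the smallest library, stayed at 64. NPC replicate 2 went from 59.55 to 129.4 and NPPC replicate 2 from 40.55 to 150.55. Leaving out each library gave -64.5 to -34.1 (p from 0.0286 to 0.0857), -34.1 being without NPC replicate 4. The repeated share, a difference of 2.17 points, reached 3.13 (exact permutation p = 0.0286) without PC-5p-4361_781, 9.20 (p = 0.0571) without the pair of most abundant candidates, and 1.13 to 2.88 with each library left out. No candidate was listed at 3 loci, so that minimum gave no value.

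Candidates called numbered 0 in each of the alternatives run other than the fit without the libraries numbered 1, which called 9, and 0 with each library left out (0 to 0). At an unadjusted p under 0.05 there were 0 to 10 with each library left out. The 10, of 50 tested, were without NPC replicate 1, where 91 of all 459 sequences tested passed. Without a filter it was 32 of 624 candidates, where 103 of all 1367 sequences passed. It was 1 of 36 each with the DESeq2 Wald test and voom, where 60 and 65 of all 422 passed. It was 9 of 36 with a replicate block, all lower in NPPC (7.35% of all sequences tested). With total count scaling it was 1 of 36, where 53 of all 422 passed. Without the libraries numbered 1 it was 19 of 53, all lower in NPPC, where 116 of all 457 passed, 58 of them lower. The replicate block called 0 after adjustment. Same-numbered libraries correlated in their deviations at 0.561, 0.140, 0.232 and 0.0787 over all sequences tested, and 2 of 8 libraries correlated best with their own number. Over the tested candidates alone they correlated at 0.809, 0.134, 0.746 and 0.199, all above 0.1, and 4 of 8 did. The labels give the numbers no shared source, so libraries were not taken as paired by the values over all sequences. With each library left out, the log2 fold change of PC-3p-2433_1557 ranged from -0.98 to 0.29 (above 0 without NPC replicate 4 or NPPC replicate 1), of PC-3p-13219_209 from -0.14 (without NPC replicate 1) to 0.59, and of PC-5p-16644_160 from -0.071 (without NPPC replicate 2) to 0.70. The cause was not tested. Of the 588 candidates that did not pass the filter, 347 had 5 to 7 counts in 1 library, and nothing can be said of their difference between groups.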

Other observations

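Over the 8 libraries, the candidates whose CPM was most like that of PC-3p-1405_3089 were PC-3p-31779_79 (Spearman rho 0.67), PC-3p-1154_3944 (0.29) and PC-5p-12036_233 (0.24), given as a description over libraries that share their depth. PC-3p-31779_79 had 49, 21, 0 and 12 counts in NPC replicates 1 to 4 and 20, 14, 0 and 21 in NPPC.

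By shared stretches of at least 14 bases, 37 candidates fell into 16 families, and the largest held 5 candidates of 23 or 24 bases with 5 to 7 counts each. The next held 4 candidates around PC-3p-3056_1188. A seed was held by more than 1 candidate in 54 cases, covering 114 candidates.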
